A study of Mus musculus with 4 samples.

Results

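The SR proteins are splicing factors with a domain rich in serine and arginine, and the genes described here are *Srsf1*, *Srsf2*, *Srsf3*, *Srsf4*, *Srsf5*, *Srsf6*, *Srsf7*, *Srsf9*, *Srsf10* and *Srsf11*. Every transcript of the deposited transcript table that carries 1 of these 10 symbols was taken, whatever its values. This gave 25 tested isoforms out of 34200 transcripts, and 10 genes out of 21945. In the text the tested isoforms of a gene are lettered by mean level, not divided by transcript length, from A for the most abundant. Of the 25, 24 averaged 100 normalised estimated counts or more, the exception being Srsf5-E.

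The RNA came from NIH/3T3 cells, a line of immortalised mouse fibroblasts, in which *Setd2* was knocked down by RNA interference. In the KD group the cells were co-transfected with 2 siRNAs against *Setd2*, and in the WT group with a Scrambled siRNA that has no target, in both at a final concentration of 10 nM. RNA was extracted after 48 h, and stranded libraries were made from polyadenylated RNA for 2 KD and 2 WT samples. The description of the series speaks of independent transfections, but the labels do not tie the numbered samples of a group to them, so the p-values measure the spread between these libraries. SETD2 is the enzyme that places the third methyl group on lysine 36 of histone H3 in the body of transcribed genes.

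SR proteins bind exonic sequences in pre-mRNA through RNA recognition motifs and recruit the spliceosome through the domain that gives them their name, which is phosphorylated by SRPK and CLK kinases. Several of them also take part in the export of mRNA and in its translation. Most SR genes contain a highly conserved poison exon or a spliced 3′UTR, whose inclusion brings a premature stop codon or a late exon junction into the mRNA, sends it to nonsense-mediated decay and so lets the protein limit its own level.

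The level of a transcript in a group, as used below, is the exponential of its mean natural log value in that group less the 0.5 that Sleuth had added, in normalised estimated counts. The error given with a level is the pooled standard deviation (SD) between libraries of the same group on the log2 scale, which was derived from the deposited variance over the 4 libraries and the deposited effect. No values of single libraries were used, and the depth of the libraries is unknown. The table does nevertheless fix, for most transcripts, whether KD and WT libraries overlap, since an effect larger than the root of the residual sum of squares leaves no room for overlap.

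*Setd2* itself was examined first, as a check of the labels. Its only tested transcript, ENSMUST00000153838.7 on chromosome 9, stood at 923 normalised estimated counts in KD against 3680.4 in WT, with an SD of 0.05 on the log2 scale, and the libraries of the groups did not overlap. In the deposited table its log2(fold change) was −1.99 (standard error 0.09, likelihood ratio q = 0.0103), and the level was 74.9% lower in KD (95% confidence interval from 71.5% to 77.9%). In bulk RNA, fewer cells with a transcript and less of it per cell cannot be told apart. All 11 fibroblast markers that were looked up had tested transcripts, with a summed level of 1326357 normalised estimated counts in WT and 1201016 in KD, of which *Col1a2* was the most abundant in WT (346235). Single markers differed in opposite directions within this sum, untested, such as *Col1a2*, at 215502 in KD, and *Fn1*, with 276425 in WT and 388093 in KD. The markers of the other cell types reported here were low. The summed level in WT was 119 for 2 of 5 epithelial markers, 106 for 3 of 3 endothelial markers and 149 for 1 of 3 muscle markers, against 158, 112 and 143 in KD. The remaining markers of these lists, *Epcam*, *Krt18*, *Krt19*, *Myod1* and *Myog*, had no tested transcript.

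The median log2(fold change) of the SR isoforms was 0.03. It was −0.01 over all 34200 transcripts and 0.05 over the 18808 that average 100 or more, as nearly all SR isoforms do, and 24 of 25 isoforms lay within 1 of 0 on the log2 scale. The likelihood ratio test of Sleuth, the authors' own test, called 0 of the 25 isoforms at a q-value under 0.05, where it called 12.5% of all transcripts. The lowest q-value was 0.0511. At an unadjusted p-value under 0.05 the same test gave 14 of 25, against 34.0% of all transcripts. The Wald test of the deposited table called 5 of 25 at a q-value under 0.05, against 18.2% of all transcripts, and limma's moderated test called 0 of 25, against 9.68%. The Wald calls were 4 higher isoforms, Srsf1-C, Srsf7-A, Srsf9-A and Srsf10-A, beside 10.4% of all transcripts called higher, and 1 lower isoform, Srsf5-D, beside 7.80% called lower. When the likelihood ratio q-values were recalculated over the transcripts that average 100 or more, 7 of 24 isoforms passed, against 34.2% of the transcripts kept. KD and WT libraries could not have overlapped for 12 of 25 isoforms, against 54.8% of all transcripts. They must have overlapped for 10, and the deposited values did not settle it for 3.

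**Figure D1:**
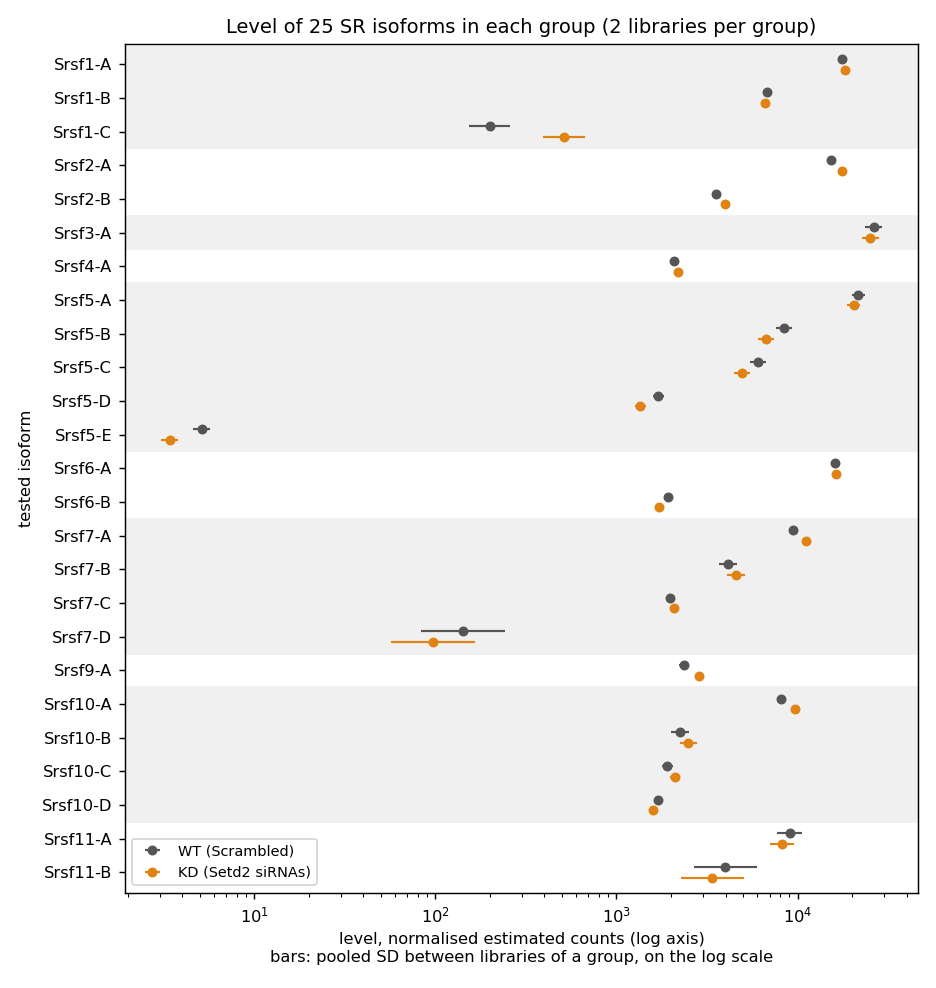
Level of each of the 25 tested SR isoforms in WT (grey) and KD (orange), in normalised estimated counts on a log axis, each from 2 libraries; bars are the pooled SD between libraries of a group on the log scale. The isoforms of a gene share a band and are ordered by their mean. Srsf1-C has the widest gap between the groups (199 in WT, 513 in KD), and Srsf5-E lies below 10 in both.

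**Figure D2:**
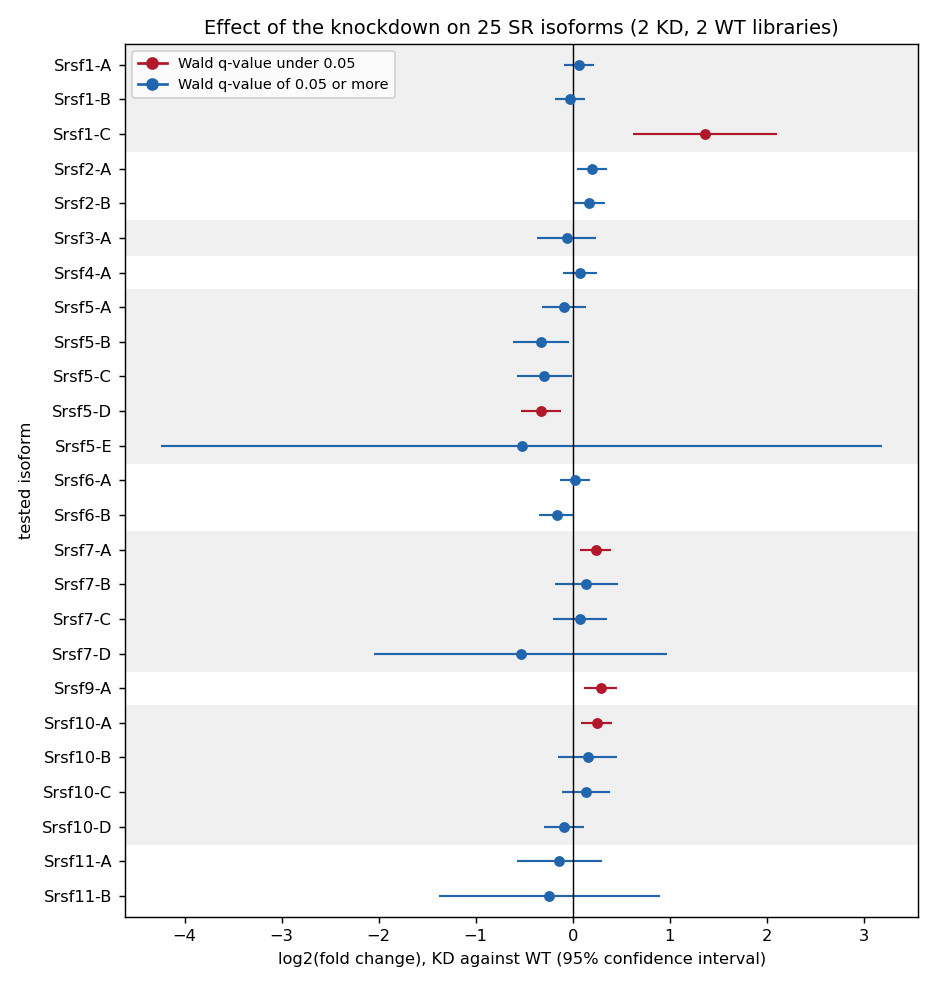
log2(fold change) of each isoform, KD against WT, with the 95% confidence interval from the deposited standard error; red marks a Wald q-value under 0.05. These intervals use the normal quantile, and those of 9 of the 25 isoforms leave out 0, against 26.7% of all transcripts; relative to *Actb* the 4 red isoforms above 0 change sign except for Srsf1-C.

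A scale is needed before any direction can be given. Relative to the median of all transcripts, 7 of the 10 summed gene levels stayed above 0 and 3 below. The most abundant *Actb* transcript, ENSMUST00000100497.10, had a log2(fold change) of 0.46 (standard error 0.11), so that relative to *Actb* the median of all transcripts moves down by that amount, and 0 of 10 SR genes and 1 of 25 SR isoforms, Srsf1-C, remained above 0. Effects also followed GC content across the table: the centred trend ran from −0.40 in the class of lowest GC content, with a mean of 34.8% GC, to 0.19 in the class of highest GC content, with a mean of 64.0%. The SR isoforms lie between 40.0% and 59.4% GC. Differences between isoforms of the same gene do not depend on a common scale, but they do depend on GC content where the isoforms differ in it.

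*Srsf1* encodes the founding member of the family, which takes part in constitutive and alternative splicing and in mRNA export. The gene lies on chromosome 11 (GRCm38, 88047373 to 88053755, plus strand), and its 3 tested isoforms differ in how the coding sequence ends. Srsf1-B (ENSMUST00000139129.8) encodes 248 residues and ends in an exon from 88049412 to 88053755. Srsf1-A (ENSMUST00000079866.10) reads on from exon 3 into the intron that follows, 88049043 to 88051490, and stops after 201 residues. Srsf1-C (ENSMUST00000107920.9) leaves the last exon at 88049598, joins an exon from 88049977 to 88050410 and encodes 253 residues. Its support level in GENCODE is 5, the weakest, and it carries the tag for no support in the organism itself. The coding ends are printed up to the stop codon, with the bases after the last shared base in capitals; for Srsf1-A the shared stretch is the end of exon 3, for the other isoforms that of exon 4.
Srsf1-B: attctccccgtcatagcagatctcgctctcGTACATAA
Srsf1-C: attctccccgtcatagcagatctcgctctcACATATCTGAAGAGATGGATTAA
Srsf1-A: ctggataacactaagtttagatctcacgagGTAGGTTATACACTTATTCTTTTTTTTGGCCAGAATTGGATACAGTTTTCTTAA

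Srsf1-A had a level of 18384 in KD and 17604 in WT (SD 0.06 on the log2 scale), and Srsf1-B had 6647 in KD and 6776 in WT (SD 0.04). The log2(fold changes) were 0.06 and −0.03 in the deposited table, and KD and WT libraries overlapped for both. These values depend on the scale: relative to *Actb* both isoforms were called lower (−0.39 and −0.48), also with the error of the *Actb* effect counted in, and after centring on GC content Srsf1-A was called higher by the Wald test (0.23, adjusted p = 0.0255). Srsf1-C had 513 in KD and 199 in WT with a wider SD of 0.38, and its KD and WT libraries did not overlap. Its log2(fold change) of 1.36 (95% confidence interval from 0.62 to 2.11) was the largest of the 25. This interval uses the normal quantile, although the standard error rests on the spread of this transcript alone. With the t quantile on 2 degrees of freedom, chosen after seeing the data, it runs from −0.27 to 3.00 and includes 0. The deposited Wald q-value was 0.00309, the likelihood ratio q-value 0.0511 and the adjusted p-value of limma 0.0508. Relative to *Actb* its log2(fold change) was 0.91 and the likelihood ratio q-value, recalculated, was 0.0757. After centring on GC content it was 1.29 and called by the Wald test (adjusted p = 0.00670). By level, Srsf1-C made up 0.81% of the summed level of the gene in WT and 2.01% in KD. With each level divided by transcript length, its share was 2.22% in WT and 5.37% in KD. Its identity rests on little sequence: of the 31-base words in it, 97.5% are shared with other *Srsf1* isoforms, and the 30 words found in no other transcript of the basic annotation span the junction between its last exons. Of the words of Srsf1-A, 92.4% are shared with other *Srsf1* isoforms, and of those of Srsf1-B, 51.1%. The split of the level between Srsf1-A and Srsf1-B therefore also rests on part of their sequence.

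The effect of Srsf1-C exceeded that of Srsf1-A by 1.30 on the log2 scale (95% confidence interval from 0.54 to 2.06). This was the 1 called difference among 15 pairs of SR isoforms, each isoform being set against the most abundant isoform of its gene. Its Wald p-value, adjusted over all 12255 such pairs of the table, was 0.0315, and 3.17% of those pairs were called. With limma's variances the adjusted p-value of the difference was 0.161, so the call depends on the test. After centring on GC content, an alternative chosen after seeing the data, the difference was 1.06 and no longer called (95% confidence interval from 0.30 to 1.83, adjusted p = 0.131, Wald test). Against the summed level of the other isoforms the difference was 1.33 (adjusted p = 0.0223, Wald test).

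*Srsf2* encodes a nuclear SR protein that does not shuttle as readily as *Srsf1* and limits its own level through splicing of the 3′UTR. Both tested isoforms encode the same 221 residues and share the stop codon. Srsf2-A (ENSMUST00000092404.12) has 1 exon junction after the stop codon, 7 bases downstream of it. Srsf2-B (ENSMUST00000190993.6) carries a further exon from 116851648 to 116851751 on chromosome 11 and splices an intron out of the last exon, which gives 3 junctions after the stop codon, the last of them 217 bases downstream. A transcript with the same introns is classed by GENCODE as a target of nonsense-mediated decay, and it was not tested. Srsf2-A had a level of 17664 in KD and 15357 in WT (SD 0.04), and Srsf2-B had 3973 in KD and 3533 in WT (SD 0.02). Libraries of the groups overlapped for neither of them. The log2(fold changes) of 0.20 and 0.17 (standard errors 0.08 and 0.08) had likelihood ratio q-values of 0.0542 and 0.0642 in the deposited table, and became −0.25 and −0.29 relative to *Actb*. The share of Srsf2-B in the summed level was 18.4% in KD and 18.7% in WT, and the difference between the effects was −0.03 (95% confidence interval from −0.26 to 0.19). After centring on GC content that difference was −0.18 (95% confidence interval from −0.40 to 0.05), and it was not called in either setting.

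*Srsf6*, *Srsf5* and *Srsf4* encode SR proteins with a pair of RNA recognition motifs and long arginine and serine rich tails. *Srsf6* on chromosome 2 (162931528 to 162937121, plus strand) is the 1 gene of the set for which a tested isoform holds a poison exon within the coding sequence. Srsf6-A (ENSMUST00000130411.6) encodes the full 339 residues. Srsf6-B (ENSMUST00000126163.2) includes an exon from 162932815 to 162932979 that Srsf6-A skips, stops within it after 135 residues, and is tagged in GENCODE as a likely target of nonsense-mediated decay if it is extended. The annotated decay isoform of the gene, which was not tested, has a longer exon with the same start. The exon is shown up to its stop codon, which is in capitals.
Srsf6-B: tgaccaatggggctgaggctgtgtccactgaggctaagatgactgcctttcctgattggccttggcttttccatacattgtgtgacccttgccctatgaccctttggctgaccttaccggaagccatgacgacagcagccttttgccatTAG

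Srsf6-A had a level of 16332 in KD and 16040 in WT (SD 0.07), and the libraries overlapped. Srsf6-B had 1719 in KD and 1927 in WT (SD 0.05), with no overlap. The log2(fold change) of the isoform with the poison exon was −0.16 (95% confidence interval from −0.35 to 0.02), with a likelihood ratio q of 0.0842 and a Wald q of 0.264. Centring on GC content moved it to −0.34 with an adjusted Wald p of 0.00350; its GC content is 58.4%, against 42.8% for Srsf6-A. The difference between the isoforms was −0.19 without centring (95% confidence interval from −0.43 to 0.05, adjusted p = 0.629, Wald test) and −0.53 after it (95% confidence interval from −0.77 to −0.29, adjusted p = 0.00123), so whether it is called depends on GC content. Srsf6-B made up 9.52% of the summed level in KD and 10.7% in WT. Divided by its annotated length of 515 bases, its share per length was 41.9% in KD and 45.1% in WT, a value that would fall if the RNA extends beyond the annotated end.

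*Srsf5* had 5 tested isoforms on chromosome 12 (80945504 to 80950507, plus strand), all with nearly the same coding sequence. They differ in the untranslated first exon and in the start of the last exon, where Srsf5-B (ENSMUST00000110351.7) and Srsf5-E (ENSMUST00000110354.7) start 3 bases earlier and so encode 270 residues in place of 269. The junction is printed with those bases in capitals.
Srsf5-B: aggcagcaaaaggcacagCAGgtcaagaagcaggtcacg
Srsf5-A: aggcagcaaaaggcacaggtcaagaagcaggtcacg

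All 5 *Srsf5* effects were below 0 in the deposited table. The most abundant isoform, Srsf5-A (ENSMUST00000094693.10), had a level of 20378 in KD and 21681 in WT (SD 0.11), with overlapping libraries and a log2(fold change) of −0.09. Srsf5-B, Srsf5-C (ENSMUST00000110352.9) and Srsf5-D (ENSMUST00000110356.2) had log2(fold changes) of −0.32, −0.29 and −0.33, and none of these had overlapping libraries. After centring on GC content Srsf5-A was at 0.06, Srsf5-B at −0.16 and Srsf5-C at −0.13, and the Wald test called none of them. Srsf5-D, which has a first exon of its own from 80945585 to 80945798, was the 1 lower isoform in the Wald test (1350 in KD and 1697 in WT, standard error 0.11, Wald q = 0.0125, likelihood ratio q = 0.0651), and its centred value of −0.22 was no longer called (adjusted p = 0.169, Wald test). Srsf5-E had 3.40 in KD and 5.11 in WT, with an interval from −4.24 to 3.19. The differences of the remaining isoforms from Srsf5-A ran from −0.44 to −0.20, and all 4 intervals included 0. Srsf5-B has 0 words of 31 bases that no other transcript holds, and 36.0% to 37.9% of the words of the 5 isoforms are also found in *Gm12966*, a processed pseudogene with no tested transcript. The assignment of reads made up 4.19%, 9.86% and 5.74% of the variance behind the standard error for Srsf5-A, Srsf5-B and Srsf5-C, 22.7% for Srsf5-D and 63.5% for Srsf5-E. *Srsf4* on chromosome 4 had 1 tested isoform, Srsf4-A (ENSMUST00000053819.5), with 2193 in KD and 2080 in WT (SD 0.07) and a log2(fold change) of 0.08, or −0.38 relative to *Actb*. Of its words, 66.5% are found on the opposite strand in *Gm12992*, a gene with a mean of 42.8 normalised estimated counts, and whether Kallisto was run with strand information is not given in the sources used here.

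*Srsf3* and *Srsf7* encode small SR proteins with a single RNA recognition motif, which act as adaptors for the export of mRNA. *Srsf3* on chromosome 17 (29032628 to 29043373, plus strand) was measured through Srsf3-A (ENSMUST00000130216.2), the SR isoform with the highest level, 25242 in KD and 26362 in WT (SD 0.16). Per kilobase it had 9642 in KD and 10070 in WT, below Srsf5-A with 13345 and 14198.5. The libraries overlapped for Srsf3-A, and its log2(fold change) was −0.06 (95% confidence interval from −0.37 to 0.25). The 2 annotated decay isoforms of *Srsf3* share an exon that Srsf3-A lacks, and they were not tested. *Gm12355* and several processed pseudogenes hold 37.6% of its words.

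*Srsf7* also lies on chromosome 17 (80200080 to 80207307, minus strand), and Srsf7-A, Srsf7-B and Srsf7-C vary in the part that encodes the arginine and serine rich domain. Srsf7-A (ENSMUST00000235069.1, 235 residues) and Srsf7-B (ENSMUST00000063417.10, 238 residues) differ by 9 bases at the end of exon 5 and in the length of the 3′UTR. Srsf7-C (ENSMUST00000234696.1, 215 residues) has a shorter exon 5 and skips the 36-base exon from 80202169 to 80202204. Srsf7-A had a level of 11113 in KD and 9427 in WT (SD 0.08) with no overlap. Its log2(fold change) of 0.24 (standard error 0.08) had a Wald q of 0.0200 and a likelihood ratio q of 0.0689, and became −0.22 relative to *Actb* and 0.31 after centring on GC content (adjusted p = 0.00172, Wald test). The standard error rests on the spread of this transcript alone. With the t quantile on 2 degrees of freedom, chosen after seeing the data, the interval runs from −0.11 to 0.58. Of the 31-base words of Srsf7-A, 97.2% are shared with other *Srsf7* isoforms. Srsf7-B and Srsf7-C had log2(fold changes) of 0.14 and 0.07. Srsf7-D (ENSMUST00000234095.1, 154 residues) starts in an exon of its own, and its coding sequence starts later than in the other isoforms and ends as in Srsf7-B. Its log2(fold change) was −0.54 with an SD of 0.77. None of the 3 differed from Srsf7-A in the adjusted test, with intervals of the difference from −0.46 to 0.26, from −0.48 to 0.16 and from −2.29 to 0.75. For Srsf7-C, 63.4% of the variance behind the standard error came from the assignment of reads.

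*Srsf9* encodes a close relative of *Srsf1* with a short arginine and serine rich domain. Its tested isoform Srsf9-A (ENSMUST00000031513.13) on chromosome 5, all of whose words are found in no other transcript of the basic annotation, had a level of 2872 in KD and 2347 in WT (SD 0.08), and the libraries did not overlap. The log2(fold change) was 0.29 (95% confidence interval from 0.12 to 0.46), with a Wald q of 0.00672 and a likelihood ratio q of 0.0561 in the deposited table. It was −0.16 relative to *Actb* and 0.10 after centring on GC content (adjusted p = 0.589, Wald test), at a GC content of 56.2%.

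*Srsf10* encodes an SR protein that represses splicing when it is dephosphorylated, as in heat shock. It lies on chromosome 4 (135855747 to 135869908, plus strand). The 4 tested isoforms combine a pair of choices, a last exon and a shift of 3 bases at the start of exon 5. Srsf10-A (ENSMUST00000105853.9) and Srsf10-C (ENSMUST00000097844.8) use the last exon from 135863729 to 135865815 and encode 262 and 261 residues with the long domain. Srsf10-B (ENSMUST00000126641.1) and Srsf10-D (ENSMUST00000102544.8) use last exons that start at 135867126 and encode 183 and 182 residues. Printed first are the starts of both last exons in capitals, after 18 bases of exon 5, the second up to its stop codon, and then the junction of exon 4 with exon 5, with the 3 added bases in capitals.
Srsf10-A: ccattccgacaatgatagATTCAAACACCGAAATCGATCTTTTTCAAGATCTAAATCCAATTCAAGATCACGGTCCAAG
Srsf10-B: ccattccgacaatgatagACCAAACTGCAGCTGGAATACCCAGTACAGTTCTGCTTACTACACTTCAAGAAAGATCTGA
Srsf10-A: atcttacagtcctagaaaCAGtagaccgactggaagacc
Srsf10-C: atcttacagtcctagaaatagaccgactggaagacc

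Srsf10-A had a level of 9666 in KD and 8148 in WT (SD 0.06), with no overlap. Its log2(fold change) was 0.25 (95% confidence interval from 0.09 to 0.40), with a Wald q of 0.0144 and a likelihood ratio q of 0.0525, and it was −0.21 relative to *Actb*. Centring on GC content moved it to 0.42 (adjusted p = 5.44e-06, Wald test). The other long form, Srsf10-C, had 2108 in KD and 1910 in WT (SD 0.10), with no overlap and a log2(fold change) of 0.14. The assignment of reads made up 53.4% of the variance behind its standard error. The short form Srsf10-D had 1590 in KD and 1692 in WT (SD 0.07) and a log2(fold change) of −0.09, while Srsf10-B, which has the same last coding exon and the 3 added bases, had 0.16. The difference between Srsf10-D and Srsf10-A was −0.34 (95% confidence interval from −0.60 to −0.07), which did not pass the adjustment over all pairs (adjusted p = 0.187, Wald test). After centring on GC content it was −0.41 (95% confidence interval from −0.67 to −0.14), also not called (adjusted p = 0.0709, Wald test). For Srsf10-B the uncentred difference from Srsf10-A was −0.09 (95% confidence interval from −0.44 to 0.25). Srsf10-C, Srsf10-D and Srsf10-A each have 0 words of their own, and *Gm5446* and *Gm9134*, both processed pseudogenes, hold part of their words, so these isoforms are separated by combinations of shared words alone.

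*Srsf11* encodes a protein of the family that also binds the U2AF proteins at the 3′ splice site. Its isoforms on chromosome 3, Srsf11-A (ENSMUST00000072875.14) and Srsf11-B (ENSMUST00000121326.7), differ in their first exons and in the end of the 3′UTR, and encode 476 and 511 residues. Srsf11-A had a level of 8208 in KD and 9029 in WT (SD 0.22), and Srsf11-B had 3388 in KD and 3998 in WT (SD 0.58). The libraries of both overlapped. The log2(fold changes) of −0.14 and −0.24 had intervals from −0.58 to 0.30 and from −1.38 to 0.90.

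**Figure D3:**
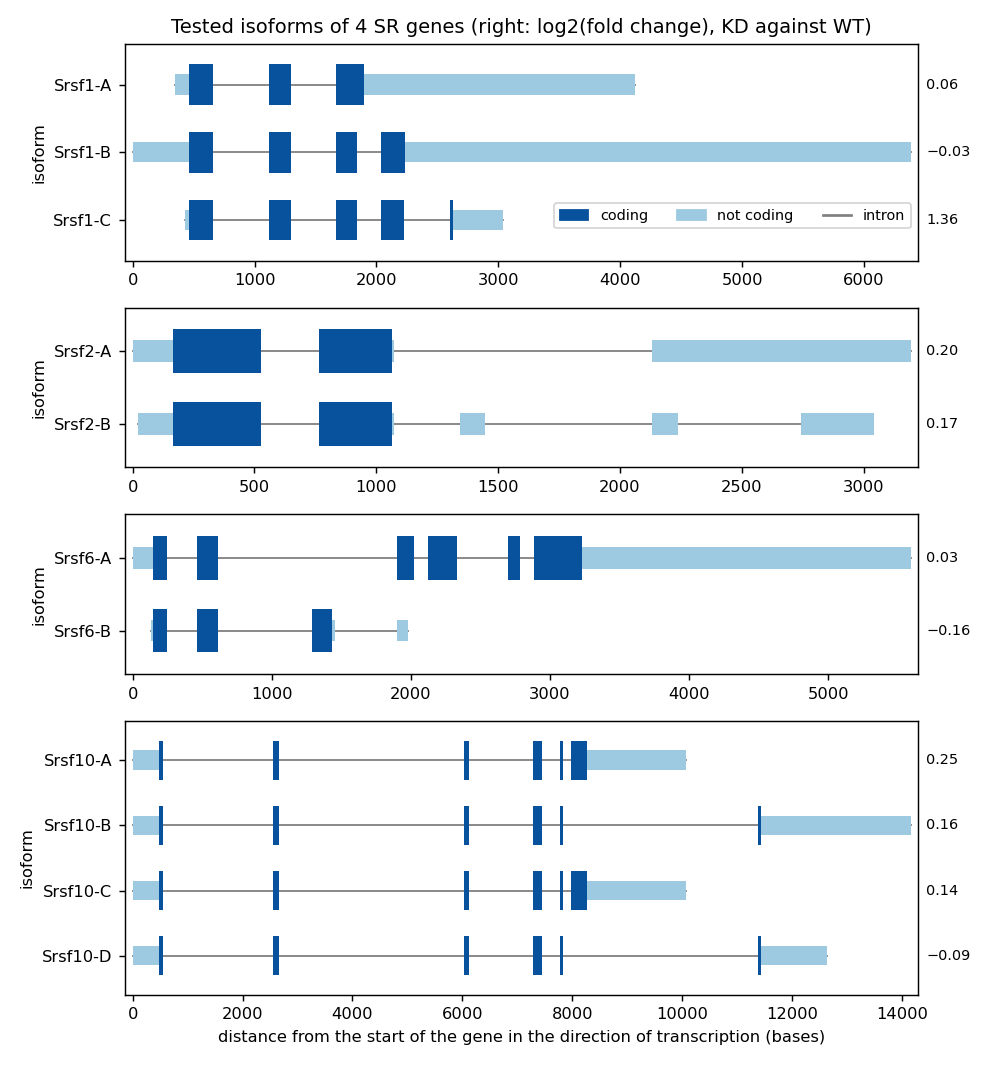
Exons of the tested isoforms of *Srsf1*, *Srsf2*, *Srsf6* and *Srsf10*, drawn to scale as distance in bases from the start of the gene in the direction of transcription; tall boxes are coding, low boxes are not, and the number on the right is the log2(fold change), KD against WT. Srsf1-C has an intron within the last exon of Srsf1-B and also starts later and ends earlier, and Srsf6-B stops in an exon that Srsf6-A lacks.

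GENCODE M21 lists 85 transcripts for the 10 genes, of which 15 are classed as targets of nonsense-mediated decay and 26 as retained introns, and 0 of either class were tested. Few such transcripts are in the table for any gene: of its 33720 transcripts found in GENCODE M21, 64 are classed as decay targets and 19 as retained introns, and 99.9% belong to the basic annotation, so their absence says nothing on SR genes in particular. All 25 tested isoforms are classed as protein coding and belong to the basic annotation.

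Summed over its tested isoforms and divided by transcript length, *Srsf5* had the highest level in WT, 24941 normalised estimated counts per kilobase, followed by *Srsf7* (12931), *Srsf2* (10751), *Srsf3* (10070), *Srsf6* (8289), *Srsf1* (7400), *Srsf11* (4689), *Srsf10* (4647), *Srsf9* (2020) and *Srsf4* (922). In WT, *Srsf2* and *Srsf3* did not differ beyond the spread between libraries, nor did *Srsf11* and *Srsf10*. The spread used for this order combines the SDs of the most abundant isoform of each gene and leaves out the others. The place of *Srsf6* rests on the short annotated length of Srsf6-B, as Srsf6-A alone gives 4548 in WT, under *Srsf1* and close to *Srsf11* and *Srsf10*. In KD the level per kilobase was 21994 for *Srsf5* and 972 for *Srsf4*, and *Srsf6* and *Srsf1* did not differ beyond the spread (7969 and 7900). *Srsf10* (5231) stood above *Srsf11* (4183), but the spread used there leaves out Srsf11-B, which had an SD of 0.58. The log2 ratio of the summed levels without division by length, KD over WT, ran from −0.18 for *Srsf5* to 0.29 for *Srsf9*, with a median of 0.07 over the 10 genes, or −0.39 relative to *Actb*.

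In the deposited gene table, which combines the p-values of the isoforms and has no direction, the likelihood ratio called 6 of the 10 genes at q < 0.05, against 24.0% of all genes, and the Wald test called 3, against 24.0%. In the whole table each of them called 5258 genes, though not the same ones. The genes called by both were *Srsf2* (likelihood ratio q = 0.00800, Wald q = 0.0141), *Srsf5* (0.0114 and 0.00497) and *Srsf9* (0.0385 and 0.00505). *Srsf1* (0.00414 and 0.0804), *Srsf6* (0.0216 and 0.550) and *Srsf10* (0.0114 and 0.0513) were called by the likelihood ratio alone.

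How the likelihood ratio statistic is built bears on these calls. The deposited statistic equals, to within 2.68e-12, the sum of a term that compares the variance estimated without and with the condition and a term that compares the residuals. Sleuth does not let the variance of a transcript fall below a smoothed value for its level, and for 24 of the 25 SR isoforms that smoothed value was larger without the condition than with it. The variance term was larger than the residual term for 20 of the 25 SR isoforms, with a median of 4.51 against 0.44. Over all transcripts the medians were 1.46 and 0.78, but these are not matched for level, as 24 of the 25 SR isoforms average 100 or more. The shares of all transcripts that go with the counts of 24 and 20 are not given here. For Srsf6-A the variance term was 6.23 and the residual term −1.37, so the statistic of 4.85 passed 3.84, the value at an unadjusted p of 0.05, at a log2(fold change) of 0.03. Srsf1-A likewise had a statistic of 5.26 at a log2(fold change) of 0.06. Across the table, 668 transcripts had a likelihood ratio p under 0.05 with a Wald p over 0.5, and the 2 SR isoforms among them were Srsf6-A and Srsf1-B.

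**Figure D4:**
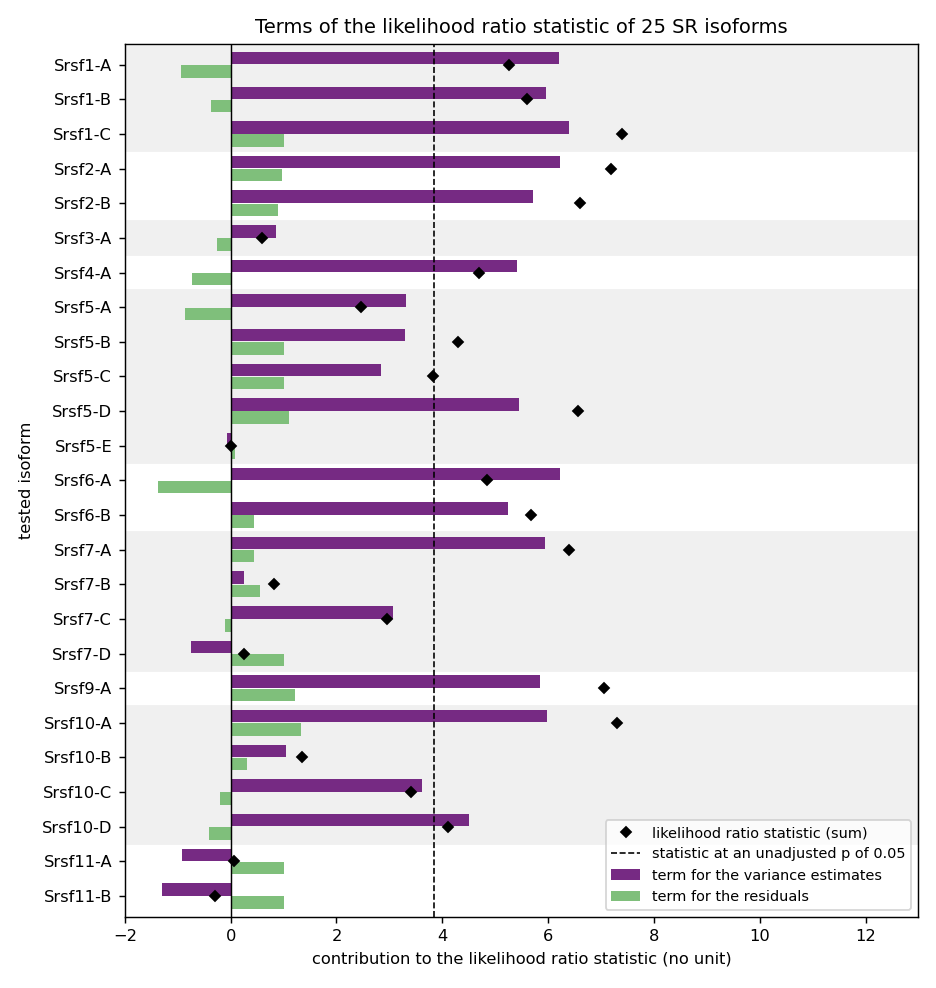
The 2 terms of the likelihood ratio statistic for each SR isoform, as bars (purple for the variance estimates, green for the residuals), and their sum as a black diamond; the axis has no unit, and the dashed line is the statistic at an unadjusted p of 0.05. For Srsf6-A and Srsf1-A, whose effects are near 0, the variance term (6.23 and 6.20) exceeds the whole statistic (4.85 and 5.26). It is also the larger term for Srsf1-C (6.40 against 1) and Srsf10-A (5.98 against 1.33), whose effects are larger.

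The kinases and the import receptor of SR proteins were looked at beside the SR genes. Of 19 tested transcripts from 9 of 10 listed genes, the likelihood ratio test called 2 higher, beside 7.26% of all transcripts, and 2 lower, beside 5.21%. *Prpf4b*, a kinase of the spliceosome, fell from 10650 normalised estimated counts in WT to 6991 in KD (log2(fold change) −0.61, standard error 0.08, likelihood ratio q = 0.0146). A *Clk4* transcript, of a nuclear kinase that phosphorylates SR proteins, fell from 864 in WT to 500.5 in KD (log2(fold change) −0.79, q = 0.0253). Centring on GC content moved it to −0.52, still called by the Wald test (adjusted p = 0.00709). *Srpk1*, the cytoplasmic kinase that prepares SR proteins for import, rose from 8085 to 10140 (0.33, q = 0.0262), and *Clk3* from 1508 to 2045 (0.44, q = 0.0269). Relative to *Actb*, however, both lay below 0, at −0.13 and −0.02. There the recalculated likelihood ratio test called *Srpk1* lower (q = 0.0392) but did not call *Clk3* (q = 0.0968). The Wald test that counts in the error of the *Actb* effect called neither. *Clk3* was not called by limma (adjusted p = 0.0541), and after centring on GC content it was at 0.27 and still called by the Wald test (adjusted p = 0.0354).

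Among the SR-like and SR-related proteins, 93 transcripts of 34 of 36 listed genes were tested, and the likelihood ratio test called 8 higher, beside 7.26% of all transcripts, and 2 lower, beside 5.21%. *U2af1* and *U2af2*, the subunits of the factor that recognises the 3′ splice site, rose with log2(fold changes) of 0.82 and 0.46 (standard errors 0.10 and 0.08). After centring on GC content *U2af2* was at 0.28 and still called by the Wald test (adjusted p = 0.00394), while *U2af1* had no centred value. *Tra2b*, an SR-like activator of exons, rose by 0.75 in the transcript ENSMUST00000161286.7 (5462 in WT and 9210 in KD, likelihood ratio q = 0.0177). Relative to *Actb*, *U2af1* stayed called at 0.36, and *Tra2b* and *U2af2* did not, at 0.30 and 0.004. The called falls were those of *Rsrc2* (−0.46, q = 0.0207) and *Rbm25* (−0.24, q = 0.0476), of which neither was called after centring on GC content and *Rbm25* was not called by limma (adjusted p = 0.0824).

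The factors of nonsense-mediated decay, which acts on the poison isoforms of SR genes, had 23 tested transcripts from all 15 listed genes, and the likelihood ratio test called 5 higher, beside 7.26% of all transcripts, and 4 lower, beside 5.21%. *Smg9*, *Smg5* and *Upf1*, of which *Upf1* encodes the central helicase, rose by 0.77, 0.70 and 0.67 on the log2 scale (standard errors 0.16, 0.08 and 0.10). Relative to *Actb* they were at 0.32, 0.24 and 0.21, where the recalculated likelihood ratio test called only *Smg5* of them (q = 0.0209). The Wald test that counts in the error of the *Actb* effect called none of them. Both *Magohb* transcripts, of a component of the exon junction complex, fell, with log2(fold changes) of −0.67 (ENSMUST00000173837.5) and −0.42 (ENSMUST00000032307.11), and *Upf3b* fell with −0.39. None of the lower calls of this list was kept by limma, and after centring on GC content ENSMUST00000032307.11 (−0.16) and *Upf3b* (−0.23) were not called by the Wald test. The median log2(fold change) over all tested transcripts was 0.09 for the kinase and import list, 0.05 for the SR-related list and 0.07 for the decay factors, against −0.01 for all transcripts of the table and 0.05 for those that average 100 or more, as most transcripts of these lists do.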

How the data were processed

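The 2 KD and 2 WT libraries were grouped by their labels. Adapters had been removed with BBDuk 38.22, transcripts quantified with Kallisto 0.44.0 and the comparison made with Sleuth 0.30.0 by the authors; the index, the filter on low counts and the use of strand are not given in the sources used here. The deposited means, effects and standard errors are on the natural log scale of normalised estimated counts plus 0.5. The score deposited is the likelihood ratio statistic, and each deposited p-value and q-value comes from their likelihood ratio or their Wald test, as the authors computed it. The columns of the comparison hold these values for KD against WT. All results rest on them, limma's included, since no values of single libraries were used.

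Division by the natural log of 2 turned effects into log2(fold changes). The members and lists were chosen with earlier results of these data known. The text names all members, *Setd2*, and from each list every called transcript, or the 3 largest rises and falls where over 6 were called. Isoform differences were tested by a Wald test with standard errors combined as if independent, with Benjamini-Hochberg adjustment over all pairs of the table. The moderated test of limma 3.58.1 used variances derived from the deposited ones, with a trend on the mean. For GC content, effects were centred on the medians of 50 classes, averaged over 3 neighbouring classes. The same centring of isoform differences was chosen after seeing the data. Relative to the median or to *Actb*, the likelihood ratio statistic was recomputed with the smoothed variances as deposited and without the error of the median or *Actb* effect. Intervals use the normal quantile. Words of 31 bases were compared within the basic transcripts of GENCODE M21, which gives all positions and sequences (GRCm38). The scripts for tests were tested on simulated data.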

Additional observations from a re-analysis of the deposited data

How the results depend on the processing

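The count of called SR isoforms, 0 in the likelihood ratio test and 0 in limma's moderated test, was 5 with the Wald q-values and 7 among transcripts that average 100 normalised estimated counts or more. It was 2 relative to the median of all transcripts, where 12.7% of all transcripts were called, and 16 relative to *Actb*, all lower, where 29.2% of all transcripts were called lower. Both counts keep the smoothed variances as deposited, so the variance term described above enters them also at effects near 0. Relative to *Actb*, *U2af2* at 0.004 had a recalculated likelihood ratio q of 0.0515. The count of 16 takes the *Actb* effect as free of error. With its standard error counted in, a Wald test chosen after seeing the data called 11 isoforms, beside 25.7% of all transcripts called lower. Srsf2-A, Srsf2-B, Srsf7-A, Srsf7-C and Srsf10-A lost the call. That setting changed the test as well as the error, so the lost calls cannot be put down to either alone. After centring on GC content the count was 5 with the Wald test, beside 15.4% of all transcripts, and 3 of the 5 were also Wald calls without centring. The 1 called difference between isoforms became 0 with limma, which called 0.253% of all pairs. It was the same against the summed other isoforms, beside 3.45% of all isoforms, and at a mean of 100 or more, beside 5.38% of all pairs. Centring on GC content, chosen after seeing the data, again gave 1, but of another pair: Srsf1-C against Srsf1-A lost its call (1.06) and Srsf6-B against Srsf6-A gained it (−0.53), beside 3.01% of all pairs. Srsf7-B against Srsf7-A changed sign there (0.0488), uncalled. The median summed gene level moved from 0.07 to −0.39 relative to *Actb*. The called transcripts of the SR-related list, 10, became 18 with the Wald q-values, which called 18.2% of all transcripts, and 29 of 84 at a mean of 100 or more, where 34.2% were called, and those of the decay factors, 9, became 5 with limma. *Setd2* kept its direction and call in each setting in which it was run, between −2.45 and −1.98.

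Relative to *Actb*, the sign of the log2(fold change) turned for Srsf1-A (−0.39), Srsf2-A (−0.25), Srsf2-B (−0.29), Srsf4-A (−0.38), Srsf6-A (−0.43), Srsf7-A (−0.22), Srsf7-B (−0.32), Srsf7-C (−0.38), Srsf9-A (−0.16), Srsf10-A (−0.21), Srsf10-B (−0.30), Srsf10-C (−0.31), *Srpk1* (−0.13) and *Clk3* (−0.0164). This follows from the subtraction of the *Actb* effect. After centring on GC content it turned for Srsf1-B (0.17), Srsf2-B (−0.0148), Srsf3-A (0.15), Srsf4-A (−0.10), Srsf5-A (0.0624) and Srsf10-D (0.00947), none of them called; the cause of the trend with GC content was not tested.

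No paired analysis was possible because no values of single libraries were used, and for the same reason no library was left out. With 2 libraries in each group, the spread rests on 2 residual degrees of freedom for each transcript, which the intervals, built with the normal quantile, leave out. With the t quantile on 2 degrees of freedom, also chosen after seeing the data, the intervals of 0 of 25 isoforms leave out 0. The share of all transcripts that goes with this count is not given here, so it says nothing on SR isoforms in particular. The t quantile is strict for the isoforms whose variance Sleuth took from its smoothed values. The depth of the libraries is unknown.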
